A study of Mus musculus with 6 samples.

Results

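Potassium channel genes were compared between conditional knockout and control mouse hearts at E13.5, mid-gestation. Conditional knockout hearts were Mesp1 Cre/+; Hic2 FL/FL, with Cre recombinase driven by Mesp1, a gene of the early mesoderm that forms most of the heart, and with Hic2, a zinc finger repressor gene, floxed on both alleles. Control hearts were Hic2 FL/FL with no Cre, so both groups carried the floxed alleles and only the knockout carried Cre. Each genotype had 3 arrays, and each array held RNA pooled from 4 to 6 hearts. The members were all genes whose platform annotation gave a single symbol of the form Kcn, further letters and a number, with Kcnj8 left out, and a gene with several probe sets was represented by the brightest. This gave 71 of 14860 genes. The mouse reference gene table lists 93 protein-coding symbols of that form, Kcnj8 included, and the others were not analysed here. All values are the authors' deposited log2 expression values, on which a difference of 1 is a doubling. Each change compares a probe set with itself. Marker sums, ranges of means, brightest rows and the median level of all genes do set different probe sets side by side.

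Potassium channels let potassium leave the cell and so repolarise it after each action potential and hold its resting voltage. Most have a pore built from subunits of the Kcna, Kcnc, Kcnd, Kcnh or Kcnq voltage-gated families, the inward rectifiers (Kcnj), the tandem-pore background channels (Kcnk) or the calcium-activated channels (Kcnn, Kcnma). Accessory subunits (Kcne, Kcnip, Kcnab, Kcnmb) form no pore of their own and set how a pore opens, closes and reaches the membrane. In heart muscle, particular pairs of pore and accessory subunits carry the named repolarising currents.

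Across genes, any pair of the 6 arrays had a correlation of 0.993 to 0.997, and array medians lay between 7.41 and 7.48. The limma p-values set each change against the spread between pools, moderated by the spread over all genes. The small number of 3 pools per genotype limits precision. Hic2 itself stood at 8.07, 7.96 and 8.04 in knockout hearts, against 8.10, 8.26 and 8.14 in control hearts. All knockout values lay below all control values, but the change of -0.14 did not pass the test across all genes (limma adjusted p = 0.314). The position of its probes relative to the deleted exons was not known here, so this does not check the labels. Of the cardiomyocyte markers, 6 of 10 were measured, with means over all arrays between 10.2 (Ryr2) and 13.9 (Tnnt2). In a bulk sample, fewer cells of a type and less RNA per cell cannot be told apart.

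Of the channel genes 1 passed the limma test across all genes, the accessory subunit Kcne3, which was higher in the knockout. At a limma adjusted p under 0.05 over all genes, 1 of 71 members was higher and 0 were lower, where 0.336% of all genes were higher and 0.222% lower. At an unadjusted limma p under 0.05 there were 9 members, 5 higher and 4 lower, or 12.7% of members against 17.5% of all genes. The groups did not overlap in 11 members, 6 higher and 5 lower, or 15.5% of members against 24.6% of all genes. Both shares lay below those of all genes, so the channel genes as a set did not stand out by number of differences. The shares were not matched for level. Of the 71 members, 58 lay under the median level of all genes, and the processing compresses fold changes of dim probe sets. The members' median log2 change was -0.02, against 0.01 for all genes, with 32 members above 0 and 39 below. The direction of that median is not firm, as it turned slightly above 0 without control replicate 1, without control replicate 3 and without knockout replicate 2.

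**Figure D1:**
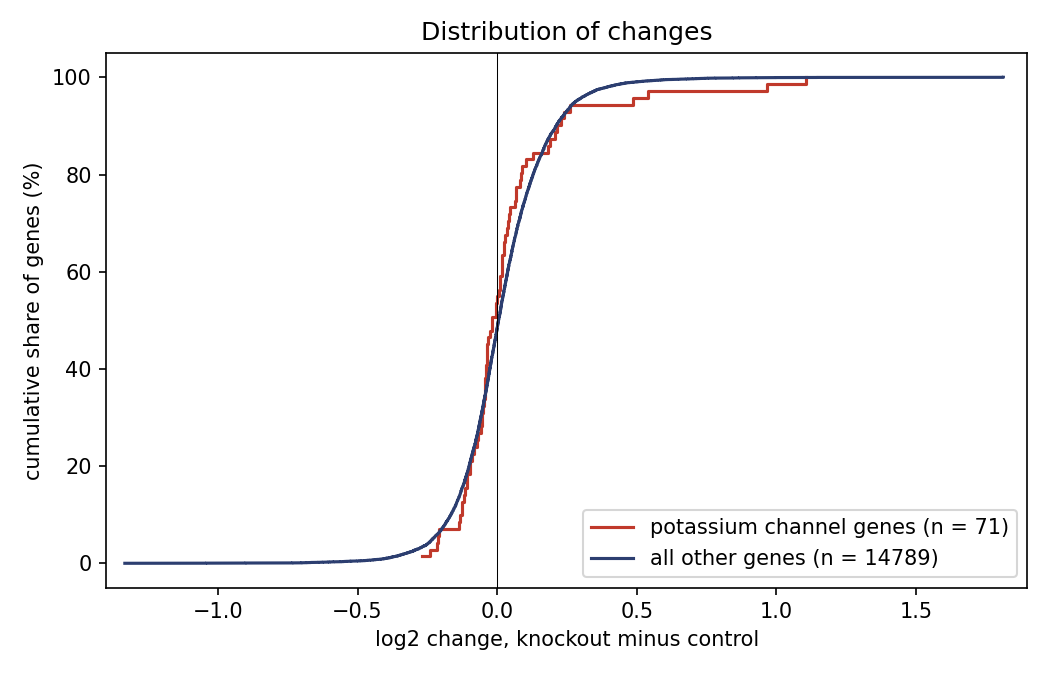
Cumulative share of genes (y axis, percent) by log2 change, knockout minus control (x axis), for the 71 potassium channel genes and the 14789 other genes. The curves lie close together around 0, while the channel genes have no change below -0.27 and 4 accessory subunit genes stand alone at the right, between 0.49 and 1.11.

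The 4 largest changes among the 71 members all belonged to accessory subunits, Kcne3, Kcnip2, Kcne1 and Kcnab1, and all 4 were upward. Of the 6 members whose knockout values all lay above the control values, 5 were accessory subunits, and of the 5 members with the opposite separation 0 were. Among all 14860 genes, 2114 separated upward and 1543 downward, and the accessory subunits number only 15. The 56 members other than accessory subunits had changes from -0.27 to 0.26, with a median of -0.03. Of these 56, 0 passed the limma test and 5 had an unadjusted limma p under 0.05, as did 17.5% of all genes. The 15 accessory subunits had a median of 0.03, and the other 11 of them lay between -0.07 and 0.18, inside the range of those 56 members. The median standard error of the change was 0.12 in accessory subunits, 0.08 in the other 56 members and 0.08 in all genes. Only Kcne3 of these 4 passed the limma test, and a difference between accessory subunits and other members was not tested.

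**Figure D2:**
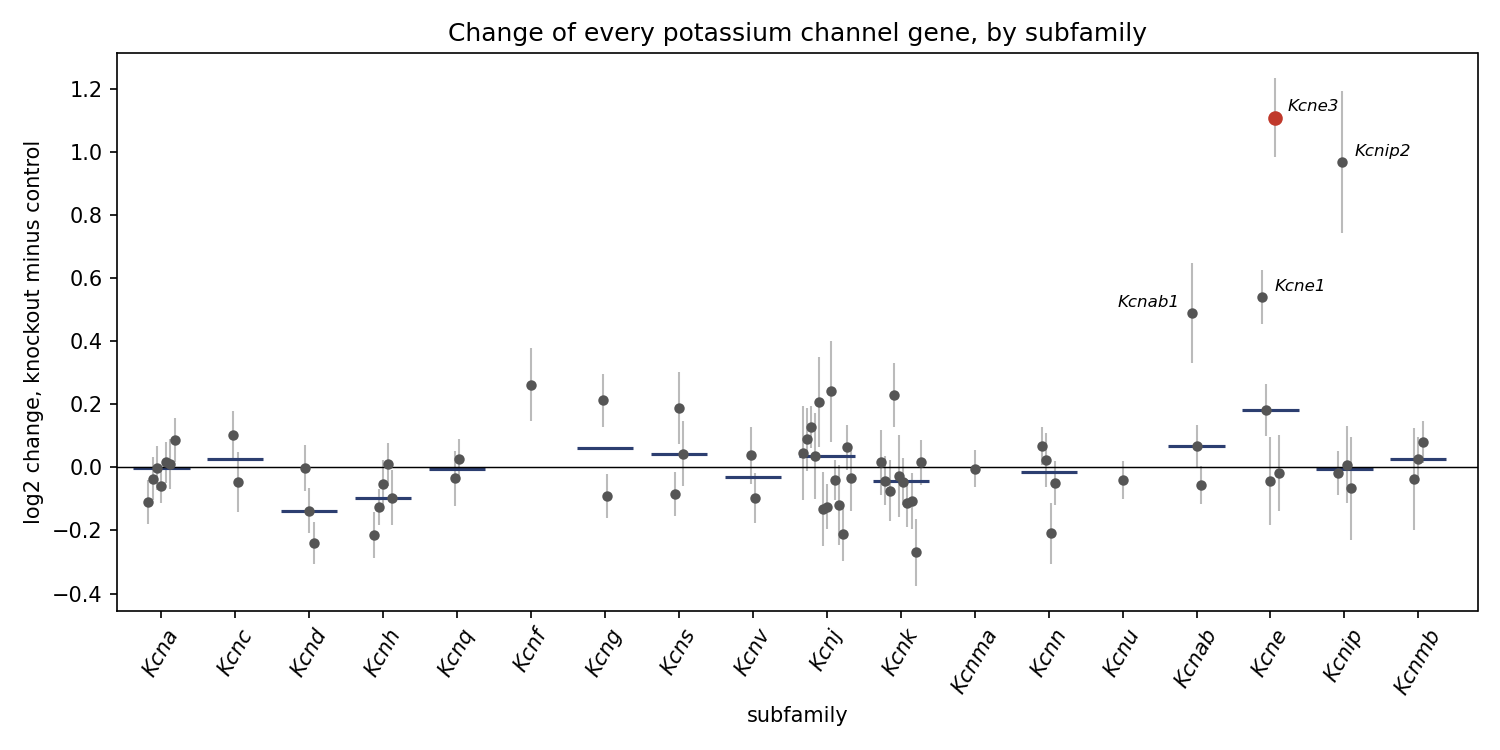
Log2 change, knockout minus control (y axis), of every member by subfamily (x axis), with bars of 1 standard error from the limma fit over 3 arrays per group. Short lines are medians of subfamilies with over 1 member, and the red point, Kcne3, is the member past the adjusted threshold. Kcne3, Kcnip2, Kcne1 and Kcnab1 stand above 0.4, and all other members lie between -0.27 and 0.26.

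The Kcne family codes for small single-pass membrane proteins that attach to voltage-gated pores. Kcne3, best known from epithelia, holds the Kcnq1 channel open at resting voltages. Its probe set (identifier 6962922) read 9.71, 9.50 and 9.84 in knockout hearts, against 8.80, 8.53 and 8.40 in control hearts. Every knockout array lay above every control array, and the gap between the groups was wider than the spread within either. The change was 1.11 ± 0.12 on the log2 scale (SE), or 2.16-fold, with a 95% confidence interval of 0.82 to 1.40 (limma adjusted p = 0.0199). The size held between 1.02 and 1.22 when any 1 array was left out. The call was lost without knockout replicate 1 or 3 or without control replicate 2 or 3, with limma adjusted p between 0.0623 and 0.0919. It was also lost when all 23332 rows of the table were tested (limma adjusted p = 0.134) and with a plain pooled-variance statistic in place of the moderated one (adjusted p = 0.222 over all genes).

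Kcne3 has 2 annotated start windows in RefSeq, each of 300 bases from 250 before to 50 after a start on the plus strand (GRCm38.p6). They are shown because Kcne3 is the member past the adjusted threshold, at chr7:100176420-100176719 for the upstream window and chr7:100178433-100178732 for the downstream window. Capitals mark ACGTG or its reverse complement CACGT, the core of the hypoxia response element, and GGGCA or its reverse complement TGCCC, a core within the HIC response element.
Kcne3 upstream window: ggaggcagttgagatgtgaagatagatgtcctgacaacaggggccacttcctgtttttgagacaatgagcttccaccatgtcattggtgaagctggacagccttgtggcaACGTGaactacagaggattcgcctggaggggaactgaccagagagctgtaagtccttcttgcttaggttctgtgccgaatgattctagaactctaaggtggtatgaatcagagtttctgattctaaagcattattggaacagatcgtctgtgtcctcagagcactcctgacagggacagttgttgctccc
Kcne3 downstream window: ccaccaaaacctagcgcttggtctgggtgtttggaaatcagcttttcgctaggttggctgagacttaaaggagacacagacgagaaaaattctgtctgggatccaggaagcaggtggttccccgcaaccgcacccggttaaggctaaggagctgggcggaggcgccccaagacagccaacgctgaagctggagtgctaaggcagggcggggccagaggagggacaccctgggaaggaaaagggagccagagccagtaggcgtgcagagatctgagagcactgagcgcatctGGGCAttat
The upstream window holds 1 ACGTG and 0 GGGCA, and the downstream window holds 1 GGGCA and 0 ACGTG. The ACGTG core occurred in 16.9% of 77 windows of 56 members with an entry, against 19.6% of 32851 windows of 27025 RefSeq genes. That background was not limited to the genes of the array. The GGGCA core occurred in 57.1% of the members' windows, against 53.5% of all windows. Such short motifs are common, matches of ACGTG and TGCCC could overlap by their shared TG, and a match describes the letters and is not a binding site.

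Kcne1 had the next smallest p and lay just beyond the threshold. It joins Kcnq1 to make the slow delayed rectifier current of heart muscle. Kcne1 read 12.14, 12.09 and 12.34 in knockout hearts, against 11.56, 11.64 and 11.75 in control hearts. The groups did not overlap, and the change was 0.54 ± 0.08 (SE), or 1.45-fold, with a 95% interval of 0.34 to 0.74 (limma adjusted p = 0.0507). It passed with a variance trend and robust moderation, with array weights and among the brighter genes only. Those settings passed 203, 733 and 443 genes in all, against 83 in the main fit. Kcne1 did not pass when any 1 array was left out, with values between 0.47 and 0.59.

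The other Kcne genes differed less. Kcne1l, an X-linked family member, read 9.53, 9.53 and 9.73 in knockout hearts, against 9.51, 9.30 and 9.42 in control hearts. The knockout values lay above the control values by a narrow margin, with a change of 0.18 ± 0.08 (SE, limma adjusted p = 0.312). Kcne2, which can join the rapid delayed rectifier channel, had a change of -0.04 with a 95% interval of -0.37 to 0.28. Kcne4, an inhibitory subunit of Kcnq1, had a change of -0.02 with an interval of -0.30 to 0.26. The arrays of the groups overlapped in both genes, and those intervals do not exclude a difference of moderate size.

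Kcnq1, the pore that Kcne1 and Kcne3 attach to, differed little. It read 9.52, 9.41 and 9.31 in knockout hearts, against 9.30, 9.53 and 9.50 in control hearts. The groups overlapped, with a change of -0.03 and a 95% interval of -0.24 to 0.17 (limma adjusted p = 0.877). Kcnq3, the other Kcnq gene measured, had a change of 0.02.

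**Figure D3:**
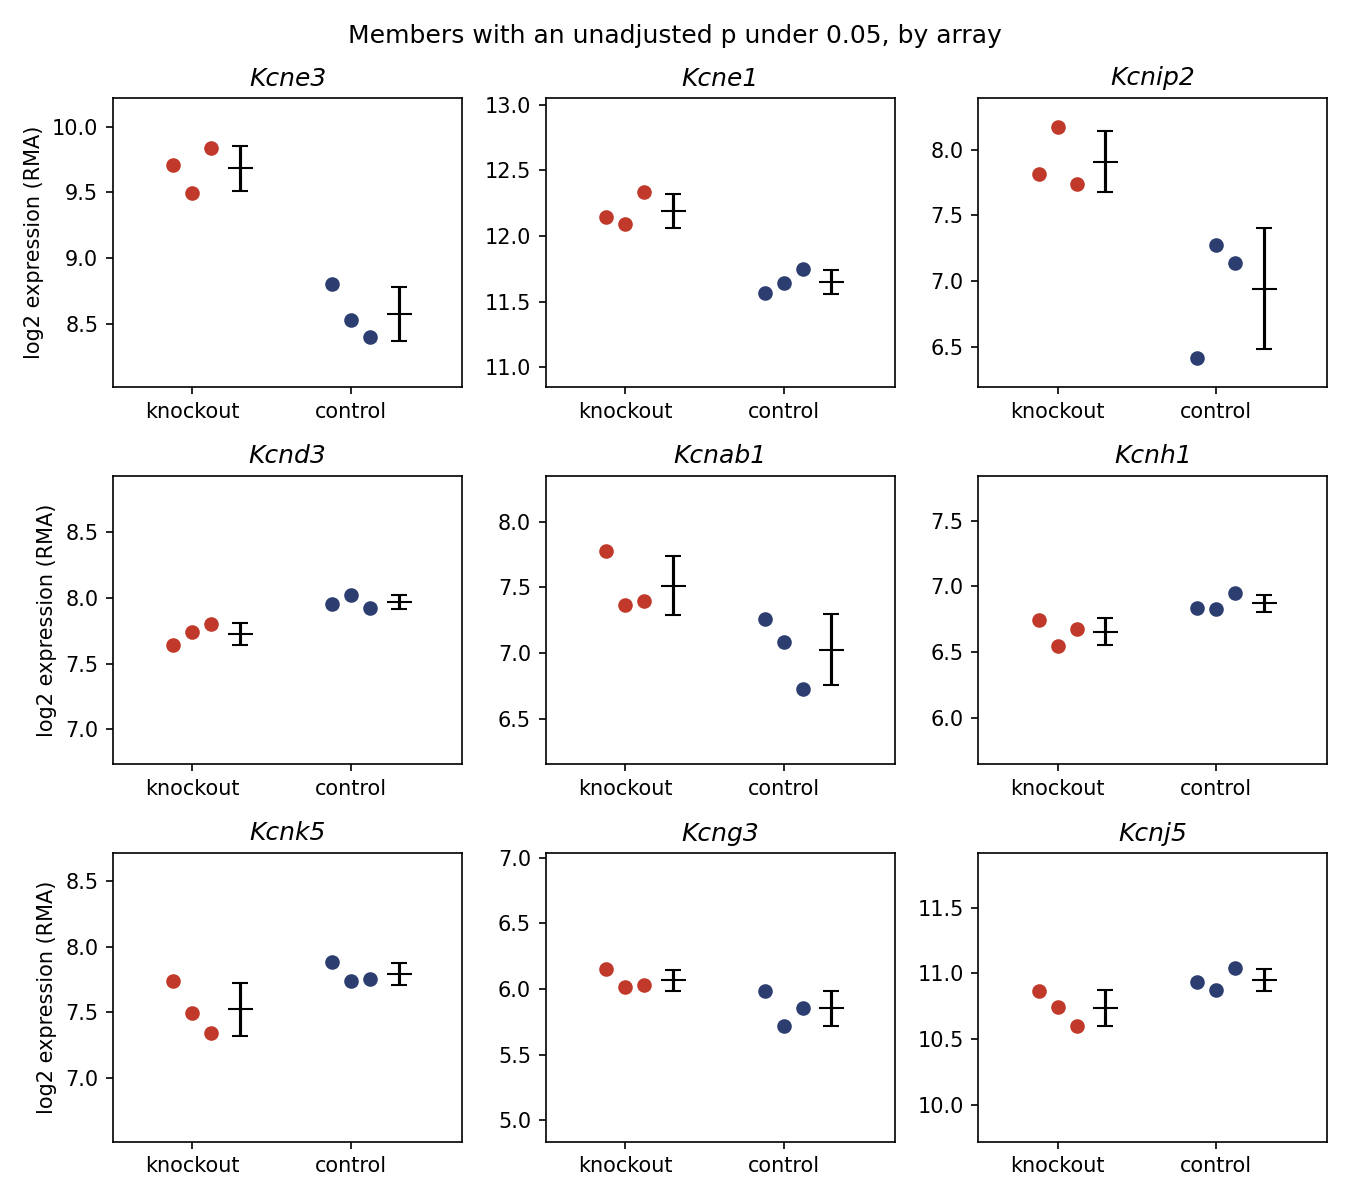
Log2 expression (y axes, all spanning 2.2 units) in each knockout array (red) and control array (blue) for the 9 members with an unadjusted p under 0.05, with the mean and SD of each group (n = 3) beside the points. The knockout arrays lie above the control arrays for Kcne3, Kcne1, Kcnip2, Kcnab1 and Kcng3 and below them for Kcnd3, Kcnh1, Kcnk5 and Kcnj5, and Kcne3 shows the widest clear gap.

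The genes of the fast transient outward current had changes of opposite sign, none past the threshold. This current starts repolarisation through pores made by Kcnd2 and Kcnd3, which need the calcium-binding protein made by Kcnip2 to reach the membrane. Kcnip2 read 7.82, 8.17 and 7.73 in knockout hearts, against 6.41, 7.28 and 7.14 in control hearts. The groups did not overlap, and control replicate 1 lay well below the other controls. The change was 0.97 ± 0.23 (SE), or 1.95-fold, with a 95% interval of 0.44 to 1.49, and it did not pass (limma adjusted p = 0.120). Without control replicate 1 the change was 0.70.

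Kcnd3 and Kcnd2 lay on the other side of 0. Kcnd3 read 7.64, 7.74 and 7.81 in knockout hearts, against 7.95, 8.03 and 7.93 in control hearts. All knockout arrays were lower, with a change of -0.24 ± 0.07 (SE, limma adjusted p = 0.150). Kcnd2 read 8.54, 8.34 and 8.34 in knockout hearts, against 8.52, 8.58 and 8.54 in control hearts. Those values overlapped, with a change of -0.14 and a 95% interval of -0.30 to 0.03. With arrays weighted by quality, Kcnip2 and Kcnd3 passed the threshold, in a setting that passed 733 of all 14860 genes against 83 in the main fit.

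The other Kcnip genes and Kcnd1 showed no such differences. Kcnip3, which also acts as a calcium-dependent transcriptional repressor, had a change of 0.01, and of -0.01 with arrays centred on their medians or -0.015 with quantile normalisation. Kcnip1 (-0.02), Kcnip4 (-0.07) and Kcnd1 (-0.0022) had changes near 0 with overlapping groups. Their mean levels were 4.72, 5.69 and 6.70, under the median level of all genes (8.32). Kcnip4 had a wide 95% interval of -0.45 to 0.31. Kcna4, the pore of the slow transient outward current, had a change of -0.06 with a 95% interval of -0.19 to 0.07.

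Kcnab genes code for cytosolic beta subunits of Shaker-type channels, and some of these subunits speed inactivation. Kcnab1 read 7.78, 7.37 and 7.40 in knockout hearts, against 7.26, 7.09 and 6.73 in control hearts. The groups did not overlap but each spread widely, and the change of 0.49 ± 0.16 (SE), or 1.40-fold, did not pass (limma adjusted p = 0.190). Kcnab2 had a change of 0.07 and Kcnab3 of -0.05. Of the Kcnmb genes, beta subunits of the large-conductance calcium-activated channel, Kcnmb1 of smooth muscle had a change of -0.04 with a wide interval of -0.42 to 0.34. Kcnmb4 had a change of 0.08 and Kcnmb2 of 0.03.

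Among the 7 Kcna pores, the Shaker-type family, changes lay between -0.11 and 0.09, and 0 had an unadjusted p under 0.05. Kcna5, the pore of the ultrarapid delayed rectifier, read 7.976, 7.972 and 7.998 in knockout hearts, against 8.063, 7.874 and 7.962 in control hearts. Its groups overlapped, with a change of 0.02 (95% interval -0.14 to 0.17) that turned to -0.01 after centring or quantile normalisation. Kcna1 had a change of -0.11, with an interval of -0.27 to 0.05. Kcna3, known from lymphocytes and macrophages, differed by -0.0028, with an interval of -0.16 to 0.16.

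Of the 5 Kcnh genes, 4 were below 0 in the knockout and 0 passed. Kcnh2 codes for the pore of the rapid delayed rectifier and is a human long QT gene. Kcnh2 read 10.31, 10.25 and 10.22 in knockout hearts, against 10.35, 10.40 and 10.41 in control hearts. Every knockout array was lower, but by little, with a change of -0.13 ± 0.06 (SE, limma adjusted p = 0.301). Kcnh1, an ether-à-go-go channel best known from brain, read 6.74, 6.54 and 6.67 in knockout hearts, against 6.83, 6.83 and 6.94 in control hearts. Its groups also did not overlap, with a change of -0.22 ± 0.07 (SE, limma adjusted p = 0.202). Kcnh3, Kcnh5 and Kcnh7 lay between -0.10 and 0.01, and the Shaw-related pores Kcnc1 and Kcnc4 had changes of 0.10 and -0.05.

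The silent subunits (Kcnf, Kcng, Kcns, Kcnv) form no channel alone and modify Kcnb pores. Of 8 measured, 5 were above 0 and 0 passed. Kcng3 read 6.16, 6.01 and 6.03 in knockout hearts, against 5.99, 5.72 and 5.86 in control hearts. The gap between the groups was narrow, and the change was 0.21 ± 0.08 (SE, limma adjusted p = 0.250). Kcnf1 (0.26, 95% interval -0.01 to 0.53) and Kcns2 (0.19, -0.08 to 0.45) had overlapping groups. Kcns3 had a change of 0.04, and Kcng4, Kcns1, Kcnv1 and Kcnv2 lay between -0.10 and 0.04.

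Inward rectifiers set the resting potential of heart muscle, and their 13 measured genes had changes from -0.21 to 0.24, with 0 past the threshold. Kcnj2, the main gene of the cardiac inward rectifier current, read 9.74, 9.35 and 9.07 in knockout hearts, against 9.14, 9.28 and 9.01 in control hearts. Knockout replicate 1 stood well above the rest and the groups overlapped. The change was 0.24 ± 0.16 (SE, limma adjusted p = 0.478), and 0.07 without knockout replicate 1. Kcnj12, a further gene of that current, had a change of 0.04 with a 95% interval of -0.28 to 0.35, and control replicate 1 (7.54) lay below the other arrays (7.90 to 8.06).

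Kcnj5 and Kcnj3 together form the acetylcholine-activated channel by which the vagus nerve slows the atria. Kcnj5 read 10.87, 10.75 and 10.60 in knockout hearts, against 10.93, 10.87 and 11.04 in control hearts. The groups touched without overlapping, with a change of -0.21 ± 0.08 (SE, limma adjusted p = 0.259). Kcnj3 read 10.68, 10.60 and 10.62 in knockout hearts, against 10.60, 10.66 and 10.76 in control hearts. Its groups overlapped, with a change of -0.04 and a 95% interval of -0.19 to 0.11. Kcnj11, a pore of ATP-sensitive channels, had a change of 0.13 with an interval of -0.03 to 0.28. Kcnj15 had a change of -0.13, and the other 7 inward rectifier genes lay between -0.13 (Kcnj16) and 0.21 (Kcnj14).

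Tandem-pore channels carry background currents that help set the resting voltage. Of 10 measured, 7 were below 0 and 0 passed. Kcnk5, a pH-sensitive channel, had the lowest value among the 71 changes. It read 7.73, 7.49 and 7.34 in knockout hearts, against 7.89, 7.74 and 7.75 in control hearts. The groups were separated by a narrow margin, with a change of -0.27 ± 0.10 (SE, limma adjusted p = 0.246). Kcnk3, the acid-sensitive background channel of heart and pulmonary artery, had a change of -0.11 with a 95% interval of -0.29 to 0.06. Kcnk2, a stretch-sensitive channel, had -0.05, and Kcnk1 had 0.02, or -0.01 with arrays centred on their medians and -0.02 with quantile normalisation. The other 5 tandem-pore genes lay between -0.11 and 0.02. Kcnk13, a channel known from microglia, had 0.23 with an interval of -0.01 to 0.46.

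Of the 6 calcium- or sodium-activated channel genes, 0 had an unadjusted limma p under 0.05. Kcnn3, a small-conductance channel, had a change of -0.21 with a 95% interval of -0.44 to 0.02. Kcnn1 (0.07) and Kcnn2 (0.02), the other small-conductance channels, lay near 0, and Kcnn2 turned slightly below 0 after quantile normalisation. Kcnma1, the large-conductance pore, had a change of -0.0040, with an interval of -0.14 to 0.14. Kcnn4 is the calcium-activated channel of red cells and leukocytes. It read 7.71, 7.60 and 7.58 in knockout hearts, against 7.75, 7.70 and 7.59 in control hearts. The groups overlapped, with a change of -0.05 and an interval of -0.21 to 0.11. For 63 of the 71 members the 95% interval lay wholly within 0.5 of 0 on the log2 scale, as it did for 13146 of all 14860 genes. These intervals describe array values. Of the members, 58 lay under the median level of all genes, and the processing compresses fold changes of dim probe sets.

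**Figure D4:**
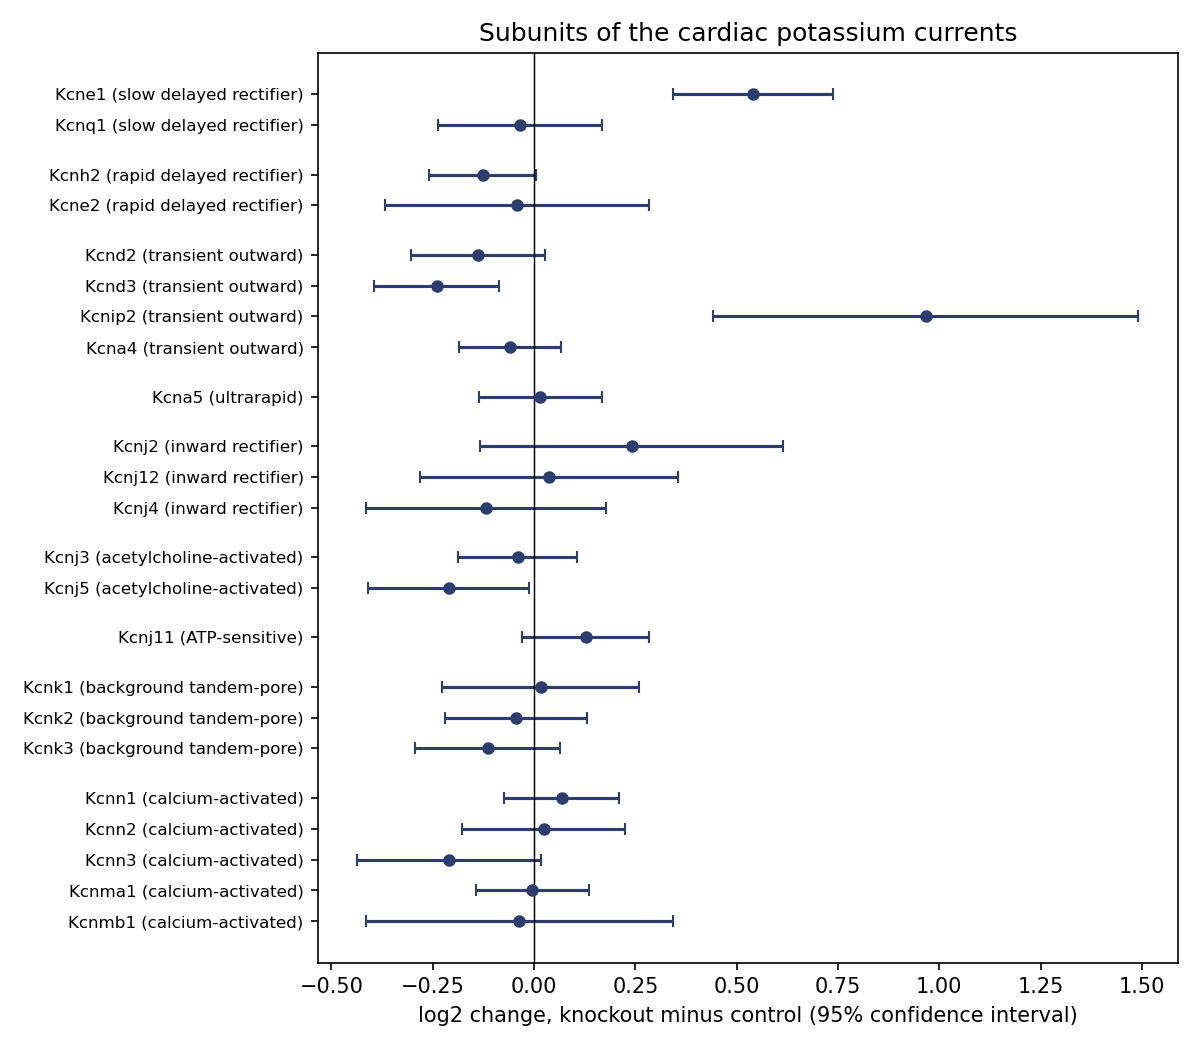
Log2 change, knockout minus control (x axis), with its 95% confidence interval from the limma fit (3 arrays per group) for subunits of the cardiac potassium currents (rows, current in parentheses). The intervals of Kcne1 and Kcnip2 lie above 0 and those of Kcnd3 and Kcnj5 below it, though none of these passed the adjusted threshold, and the intervals of the other subunits include 0.

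Genes that work beside potassium channels were described by the same fit. Over 6 lists, 43 genes were measured and 0 passed the limma threshold over all genes. With array weights 1 sodium channel, 1 calcium channel and 1 cotransporter gene passed, in a setting that passed 733 of all 14860 genes against 83 in the main fit. At an unadjusted limma p under 0.05 there were 8, or 18.6%, close to the 17.5% of all genes, so the genes named here by smallest p do not set the lists apart. Of 7 channel partners, 2 were above 0. The smallest p values belonged to Dpp6, a partner of Kcnd pores (0.25 ± 0.08, SE), the membrane anchor Ank3 (-0.19) and Abcc9, the regulatory subunit of vascular and cardiac ATP-sensitive channels (-0.12). Hcn2, the pacemaker channel gene measured, had a change of -0.01. Of 4 sodium-potassium pump genes, Atp1b2 (-0.27), Fxyd1 (0.12) and Atp1b3 (0.10) had the smallest p. Among 10 sodium channel genes these were Scn7a (-0.47 ± 0.10, SE, limma adjusted p = 0.0873), Scn3b (0.25) and Scn10a (0.09). Among 15 calcium channel genes they were Cacna1d (-0.31 ± 0.09, SE, limma adjusted p = 0.154), Cacna2d3 (-0.16) and Cacna1c, the main cardiac calcium channel (-0.14). Among 6 cation-chloride cotransporters they were Slc12a2 (-0.24, limma adjusted p = 0.152), Slc12a3 (-0.05) and Slc12a5 (0.01).

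Several cell type marker lists moved with genotype in the same arrays as Kcne3. All 10 measured erythroid markers were below 0, 5 past the limma threshold, and their summed linear signal was 38100 to 41670 in knockout hearts and 47240 to 51780 in control hearts. All 9 measured macrophage markers were above 0, 2 past the threshold, with sums of 3429 to 3721 in knockout hearts and 2594 to 2881 in control hearts. Of 7 epicardial markers 5 were above 0 and 3 passed, with sums of 9994 to 11300 in knockout hearts and 8846 to 9810 in control hearts. Of 8 skeletal muscle markers 7 were above 0 and 1 passed, with sums of 7935 to 9401 in knockout hearts and 5169 to 6163 in control hearts. Ckm, which heart muscle also expresses, made up 69.3% to 79.6% of the skeletal sum, and the muscle identity genes Myod1 (-0.06) and Myog (0.04) had changes near 0. Without Ckm the skeletal sums were 2270 to 2889 in knockout hearts and 1259 to 1420 in control hearts. The 4 skeletal markers without overlap, Tnnt3 (1.81), Tnni2 (0.67), Ckm (0.49) and Mylpf (0.30), all lie on chromosome 7, as does Myod1. Chrna1 (0.17), Actn3 (0.11) and Myog lie on other chromosomes, and their groups overlapped. The sums of all 4 lists did not overlap between the genotypes, with or without the brightest marker of each list. Array values have no true zero, so no marker could be called absent. The part of these cells in the channel results was not tested.

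In the other lists 0 markers passed the threshold. The 6 cardiomyocyte markers had a median change of -0.04, and sums of 53220 to 56740 in knockout hearts and 55450 to 56870 in control hearts. The lowest, Nkx2-5 (-0.37), had an unadjusted limma p under 0.05 without overlap, and the groups overlapped in the rest. The 8 smooth muscle and pericyte markers had a median of -0.06, and sums of 20030 to 20830 in knockout hearts and 20790 to 21450 in control hearts. The 7 endothelial markers had a median of 0.01, and sums of 22620 to 24060 in knockout hearts and 21340 to 22240 in control hearts. These did not overlap, but without Emcn (0.35) they did, at 14580 to 16520 in knockout hearts and 15090 to 16160 in control hearts. Emcn itself was higher without overlap, at an unadjusted limma p under 0.05. The 7 neuron and neural crest markers had a median of 0.06, and sums of 918 to 956 in knockout hearts and 886 to 995 in control hearts. The 5 conduction markers had a median of -0.185, with 4 below 0 and Shox2 (-0.24) and Tbx18 (-0.24, also on the epicardial list) at an unadjusted limma p under 0.05 without overlap. Their sums were 4275 to 4699 in knockout hearts and 4695 to 4750 in control hearts. Without Gja5, the brightest and the 1 marker above 0, they were 1756 to 2099 in knockout hearts and 2101 to 2299 in control hearts.

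By position, Kcne3 lies on chromosome 7, which also carries Mesp1, the gene that drives Cre in this design. The 7 members on chromosome 7 had changes from -0.05 to 1.11, and 1 of them passed. The skeletal muscle markers Tnnt3, Tnni2, Ckm and Mylpf, all higher in the knockout without overlap, lie on chromosome 7 too. The other listed markers on chromosome 7 did not share this. Hbb-y (-0.11) was lower without overlap, and the groups overlapped in Myod1 (-0.06), Th (0.0014) and Phox2a (0.12). Kcne1 lies on chromosome 16, as does Hic2. The 4 members on chromosome 16 had changes from -0.13 (Kcnj15) to 0.54 (Kcne1), and 0 passed. Linkage to either locus was not tested.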

How the data were processed

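Total RNA of 6 pools of hearts was hybridised to Affymetrix arrays, 1 pool per array. The values, log2 expression on the authors' own scale, came from RMA as run in Expression Console, according to the submitters' processing notes. This method corrects background, normalises the arrays to one another and summarises probes, so a change shared by most genes would be removed, and it compresses fold changes of dim probe sets. Its version and the genome build behind the probe sets were not given in the sources used here. Without detection calls, dim signal and background could not be told apart.

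Groups came from the genotype in the titles. The labels name biological replicates and give no batch, litter or sex. Of 23332 probe sets, 14996 had a single symbol, 1019 had more than 1 and 7317 had no name here. Keeping the row with the highest mean per gene left 14860 genes. Among the members only Kcnc1 had a second row. All 71 members were found by gene identifier in a RefSeq table of GRCm38.p6, used for chromosomes and promoter windows.

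Genes were compared with limma 3.58.1 (lmFit, eBayes) in R 4.3.3, as knockout minus control, two-sided, with Benjamini-Hochberg adjustment over all 14860 genes and a threshold of 0.05. The moderated test had 7.46 degrees of freedom. Errors of changes are standard errors of this fit, and errors of levels are SDs. Marker sums add values taken back from the log2 scale.

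The members and lists were chosen with earlier results of these data known. The text names members past the threshold, the 8 largest changes in each direction, the member with the smallest p and the brightest member of each subfamily with at least 3 members, a fixed list of cardiac, vascular and pacemaker channel genes, and up to 3 genes per partner list. The other members appear in ranges or were named after their values were seen. Deviations of same-numbered arrays from their group means correlated at -0.04, 0.02 and 0.13 across genes, so the replicate numbers were not taken as pairs.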

Additional observations from a re-analysis of the deposited data

How the results depend on the processing

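There were 15 alternatives, and the fit on brighter genes held only genes at or above the median level of all genes. Of 39 named channel genes, 24 kept their direction in every alternative they could be run in, and 35 passed the threshold in none. The count of 1 member past the threshold, higher in the knockout, was also 1 with the replicate number as a block, after median centring or quantile normalisation and with the mean of a gene's rows. It was 2 with a variance trend and robust moderation and 2 among the brighter genes only, where 13 members were tested. With array weights it was 4, 3 higher and 1 lower. It was 0 over all genes when every row of the table was tested and 0 with a plain pooled-variance statistic, under which 1 gene of 14860 passed. Leaving out 1 array at a time gave 0 to 1, and Kcne3 under the block had a limma adjusted p of 0.0421. At an adjusted p under 0.1 it was 2. Over all genes the count of 83 became 38 with the replicate block, 733 with array weights, 443 among the brighter genes and 203 with trend and robust moderation. Without 1 array it was 3 (control replicate 2) to 28.

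Without the 3 members of smallest p, an alternative chosen after seeing the data, the members' median was -0.0231. The median of the members (-0.02) was -0.0391 after median centring and ran from -0.0358 to 0.0026 without 1 array. The named genes that turned direction had small changes, and the cause was not tested. With array weights these were Kcna3 (0.037), Kcna5 (-0.0246), Kcnab2 (-0.0113), Kcnip3 (-0.1452), Kcnk1 (-0.1253) and Kcnq1 (0.019). After median centring they were Kcna5 (-0.0052), Kcnip3 (-0.0134) and Kcnk1 (-0.0051), and after quantile normalisation Kcna5 (-0.0105), Kcnip3 (-0.015), Kcnk1 (-0.0216) and Kcnn2 (-0.0007). Without 1 array at a time, values ran from -0.0482 to 0.0394 (Kcna3), -0.0303 to 0.0638 (Kcna5), -0.1466 to 0.0926 (Kcne2), -0.1489 to 0.0792 (Kcne4), -0.1098 to 0.0823 (Kcnip3), -0.1343 to 0.1275 (Kcnj12), -0.0759 to 0.001 (Kcnj3), -0.0918 to 0.0984 (Kcnk1), -0.1024 to 0.0244 (Kcnk2), -0.0335 to 0.0198 (Kcnma1), -0.1818 to 0.1125 (Kcnmb1), -0.0439 to 0.0876 (Kcnn2), -0.1072 to 0.0181 (Kcnq1) and -0.0283 to 0.1296 (Kcns3). Of the 71 members, 58 lay under the median level of all genes. Marker sums without the brightest marker were chosen after seeing the data.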
